A study of Mus musculus with 24 samples.

Results

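Runx1, Runx2, Cbfb, Cebpa, Cebpb, Cebpd and Cebpg, the genes of the RUNX and C/EBP transcription factors, were examined in the ovaries of 2 mouse lines at metestrus, the stage of the estrous cycle after ovulation. Their probe sets were those annotated to these symbols, a probe set being several short probes on the array for a single transcript. The rule gave 14 probe sets of 22626 and covered 6 of the 7 genes, out of 12393 genes on the arrays, with 5 probe sets for Runx1, 3 for Cebpg, 2 each for Cebpb and Cebpd, and 1 each for Cbfb and Cebpa. Runx2 had no probe set in the annotation used and was not analysed here. FL1 is a line selected to generation 130 on an index of the size and weight of litters at birth. The control line DUKsi came from the same genetic pool, was not selected for a trait and was inbred by full-sib mating. Both groups were virgin females aged 6 to 9 weeks. RNA of whole ovaries was combined to 6 pools per line from 30 animals each, with 5 animals per pool in the study's methods and 6 in the sample labels, and each pool was hybridized to 2 MOE 430A arrays. A value below is the MAS5 signal, a linear intensity scaled to a common level per array, averaged over the arrays of a pool. The animals of different pools were different, so that the spread between pools holds differences between animals, reduced by pooling, together with technical noise. For Cbfb the SD between arrays of a pool was 0.258 log2 units, against 0.174 between pools of FL1 and 0.12 between those of DUKsi. A pair of pools stood apart. DUKsi pool 4 had a summed signal of surface epithelium and oviduct markers of 7984, against 1662 to 2215 in the other DUKsi pools and 2738 to 3070 in FL1. Its summed signal of neutrophil and myeloid granule markers was 5461, against 847.8 to 1349 and 990.9 to 1574. Only Ltf, at 1838, and Lcn2, at 2455, made up most of the latter sum in this pool. FL1 pool 3 had the highest 3' to 5' ratio of beta-actin, 2.45. Without both, Runx1 1422864_at and 1422865_at and Cebpb 1418901_at, the probe sets that passed the test below, passed it too, with log2 fold changes of -1.005, -0.76 and -0.72.

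RUNX proteins bind DNA through the runt domain, and CBFb, which does not bind DNA itself, joins them as the beta subunit and raises their affinity. C/EBP proteins are basic leucine zipper factors that bind as dimers with each other or with other zipper proteins. In the ovary, the luteinizing hormone surge is known to induce Runx1, Runx2 and Cebpb in granulosa cells of the ovulatory follicle, where they take part in ovulation and in the turn of granulosa cells into luteal cells, and loss of C/EBPa and C/EBPb from granulosa cells blocks ovulation.

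On the arrays, Runx1 and Cebpb were lower in FL1 than in DUKsi at some of their probe sets, whereas Cbfb did not pass the test. The paper also measured Runx1 by quantitative PCR and states that this did not bear out its lower level in FL1 unambiguously. In the sample pools the paper reports significant correlations of array and quantitative PCR values for its retested transcripts except Bcl2, Pi4k2b and Rgs5. Runx1 was thus among those that correlated. At the Runx1 probe set with the highest signal the mean of DUKsi was 1.94 times that of FL1, and at the main Cebpb probe set it was 1.60 times that of FL1. Of the 14 probe sets, 3 were lower in FL1 at an adjusted p under 0.01 (limma, Benjamini-Hochberg adjustment over all 22626 probe sets), each with a ratio of mean signals of at least 1.5, and 0 were higher. These 3 were Runx1 1422864_at, Runx1 1422865_at and Cebpb 1418901_at. Over the whole array 1.07% of the probe sets were lower and 1.24% were higher by the same rule, and 1.55% and 1.83% at the adjusted p alone. At an unadjusted p under 0.05 in limma 6 of the 14 were lower and 0 higher, against 11.5% and 8.25% of all probe sets. All pools of FL1 lay below all pools of DUKsi at the same 3 probe sets, which held for 2.39% of all probe sets, the opposite order being found for 2.24%. The log2 fold change, FL1 minus DUKsi, was negative at 12 and positive at 2 of the 14, with a median of -0.24 against -0.07 over all probe sets. In whole ovaries, fewer cells of a type and less RNA per cell cannot be told apart.

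**Figure D1:**
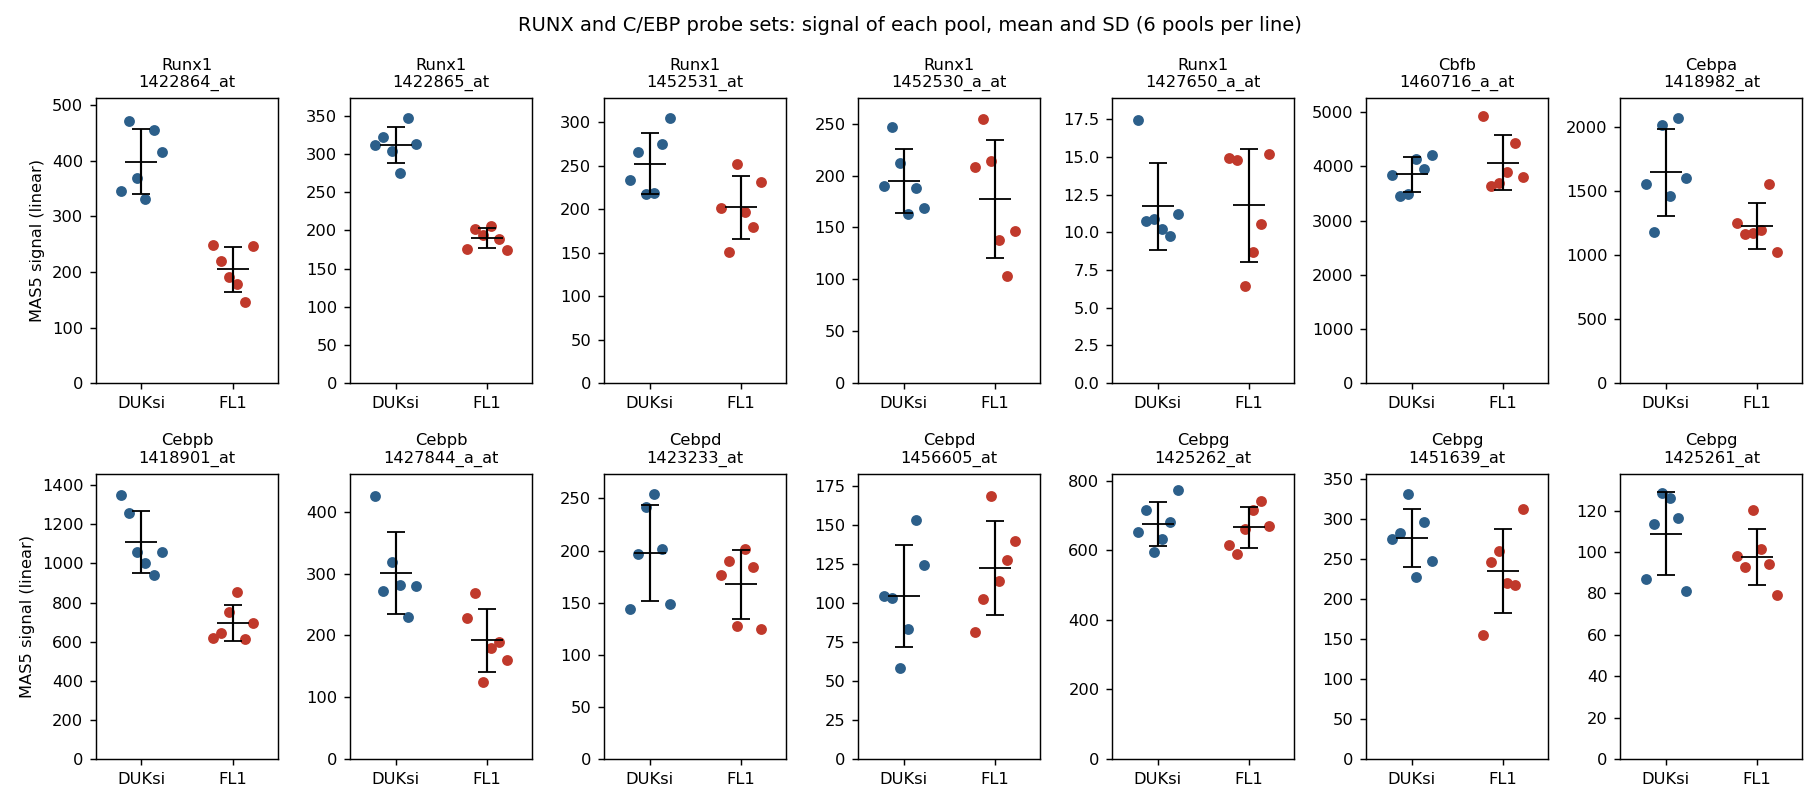
MAS5 signal on a linear axis (vertical) of each pool of DUKsi and FL1 (horizontal) at the 14 RUNX and C/EBP probe sets, each panel with its own scale from 0. Points are pools, bars the mean and SD of 6 pools, and the lines do not overlap at Runx1 1422864_at, Runx1 1422865_at and Cebpb 1418901_at.

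Runx1, the DNA-binding alpha subunit best known from blood formation, lies at 92601466 to 92826074 of chromosome 16 (GRCm38.p6). At 1422864_at the pools of FL1 ran from 145.7 over a median of 205.4 to 247.8, and those of DUKsi from 332 over 392.5 to 472. The highest pool of FL1 thus stayed below the lowest of DUKsi, and all 12 single arrays of FL1, at 121.8 to 253, lay below all 12 of DUKsi, at 308 to 527. FL1 had a mean of 205 ± 40.4 and DUKsi one of 398.3 ± 58.4 (SD over 6 pools of a line, as in all means below), a log2 fold change of -0.97 with a standard error of 0.143 and a 95% interval of -1.27 to -0.67 (limma, adjusted p = 0.000444). At 1422865_at, made from the same RefSeq transcript, the pools ran from 174.5 to 205.6 in FL1 and from 274.5 to 346.9 in DUKsi, again without overlap in pools or single arrays. The means of 189.9 ± 13.2 and 311.8 ± 23.7 gave a log2 fold change of -0.71 with a standard error of 0.0969 (limma, adjusted p = 0.00021). Here the pools varied least, with a coefficient of variation of 6.98% in FL1 and 7.59% in DUKsi. The fold changes of these probe sets differed by -0.26 log2 units, which did not pass the test (exact permutation over 12 pools, two-sided, adjusted p = 0.305 over the 11 pairs of probe sets of 1 gene).

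The other 3 Runx1 probe sets did not pass the test. At 1452531_at the pools of FL1 ran from 151.3 to 251.8 and those of DUKsi from 217.5 to 304.8, so that the lines overlapped, and FL1 was the lower one in 31 of 36 when each of its pools was set against each of DUKsi. The log2 fold change was -0.33 with an interval of -0.62 to -0.04 (limma, adjusted p = 0.191). At 1452530_a_at it was -0.18, with an interval of -0.61 to 0.24 (limma, adjusted p = 0.658). The arrays of a pool differed there by an SD of 0.521 log2 units, against 0.149 at 1422864_at. The last, 1427650_a_at, had mean signals of 11.8 in FL1 and 11.7 in DUKsi, below the 20th percentile of all signals at 48.4, and an interval of -0.67 to 0.61. The fold change at 1422864_at differed from that at 1452531_at by -0.64 log2 units and from that at 1452530_a_at by -0.79 (exact permutation, two-sided, adjusted p = 0.0238 for each). For 1422865_at the same differences of -0.38 and -0.53 did not pass (exact permutation, adjusted p = 0.119 for each). With the beta-actin covariate described below, the log2 fold change at 1452531_at was -0.55 and still did not pass (limma, adjusted p = 0.0281), while that at 1452530_a_at was -0.20. Without the covariate the line difference of Runx1 was thus larger at 1422864_at than at 1452531_at and 1452530_a_at, which derive from a transcript record other than that of the pair that passed.

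**Figure D2:**
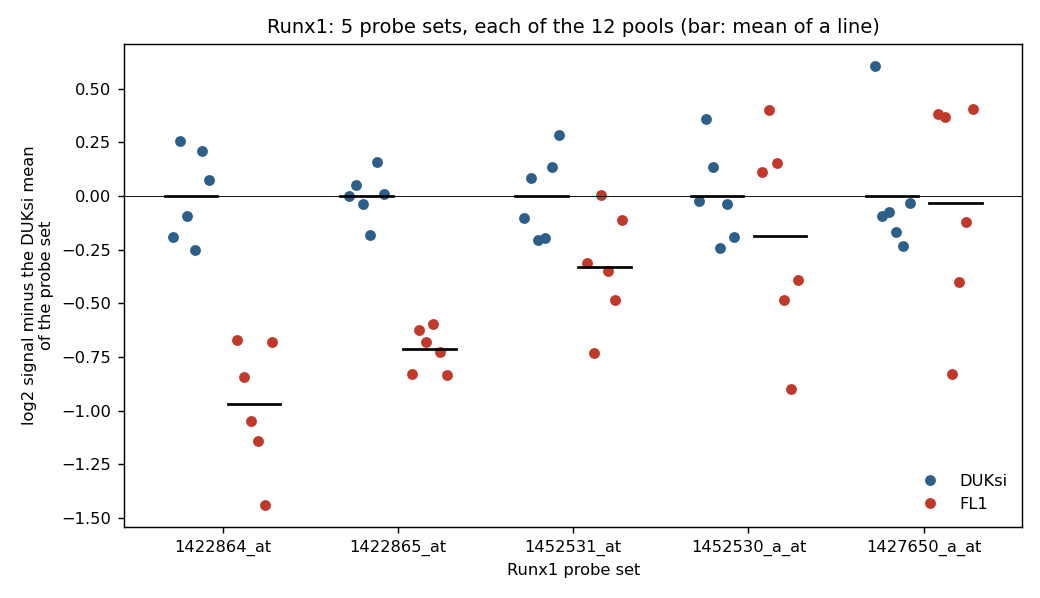
Log2 signal of each of the 12 pools minus the DUKsi mean of the probe set (vertical) at the 5 Runx1 probe sets (horizontal), with bars for the mean of a line. FL1 is lower without overlap at 1422864_at and 1422865_at, overlaps at 1452531_at and 1452530_a_at, and has nearly the same mean at the dim 1427650_a_at.

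The RefSeq promoter table gives Runx1 2 start sites, a distal and a proximal one, and the arrays do not tell which of them the measured RNA came from. The 250 bases before each are shown because Runx1 differed between the lines, 5' to 3' on the minus strand of GRCm38.p6, with the only motif found, CCAAT on either strand, in capitals.
Runx1, distal start, chr16:92826075-92826324: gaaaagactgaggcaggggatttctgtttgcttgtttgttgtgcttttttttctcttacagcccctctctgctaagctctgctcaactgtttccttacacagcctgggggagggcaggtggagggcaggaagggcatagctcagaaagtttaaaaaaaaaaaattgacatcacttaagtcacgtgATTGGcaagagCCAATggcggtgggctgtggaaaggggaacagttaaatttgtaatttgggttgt
Runx1, proximal start, chr16:92697330-92697579: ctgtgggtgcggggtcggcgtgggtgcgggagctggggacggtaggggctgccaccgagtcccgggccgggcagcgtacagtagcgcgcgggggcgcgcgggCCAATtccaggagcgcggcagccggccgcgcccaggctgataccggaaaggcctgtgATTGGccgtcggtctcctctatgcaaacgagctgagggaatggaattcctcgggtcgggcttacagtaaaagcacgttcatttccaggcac
Each window held CCAAT on both strands, at -65 to -61 and -54 to -50 of the distal and at -148 to -144 and -91 to -87 of the proximal start. CCAAT occurred in 33.8% of 32851 promoter windows of this length. The RUNX motifs TGTGGT and TGCGGT, the C/EBP motifs TTGCNNCAA and TTGCNNAA, the cAMP response element core TGACG and TATAAA were searched on both strands and had no match in these windows. GC made up 45.6% of the distal and 67.6% of the proximal window, against a median of 52.4% over all windows.

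Cbfb, the gene of the beta subunit, lies at 105170674 to 105217989 of chromosome 8 and was among the brightest probe sets of the arrays, at the 97.4th percentile of mean signals. Its pools ran from 3638 over a median of 3855 to 4937 in FL1 and from 3461 over 3900 to 4214 in DUKsi. The lines covered nearly the same range. The means were 4066 ± 512 and 3851 ± 317, with a log2 fold change of 0.07 and an interval of -0.10 to 0.25 (limma, adjusted p = 0.671), and this interval leaves out a fall of the size of Runx1. Within the pools, the log2 ratio of Runx1 to Cbfb was lower in FL1 by a difference of -1.04, with an interval of -1.44 to -0.65 (exact permutation, two-sided, adjusted p = 0.00812 over 15 pairs of genes, each by the probe set with the highest signal).

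Cebpb, the C/EBP gene that hormones and cytokines induce, lies at 167688915 to 167690432 of chromosome 2. At 1418901_at the pools of FL1 ran from 612.1 over a median of 671.5 to 853.7, and those of DUKsi from 939.8 over 1057 to 1353. No pool of FL1 reached the lowest of DUKsi, and among the single arrays FL1 was the lower one in 142 of 144 comparisons with DUKsi. The means were 696.5 ± 93.4 and 1111 ± 159, a log2 fold change of -0.67 with a standard error of 0.104 and an interval of -0.89 to -0.45 (limma, adjusted p = 0.000672). By the methods' t-test on linear signals, here with Benjamini-Hochberg adjustment in place of the study's q-values, the adjusted p was 0.011, beyond the threshold. At 1427844_a_at the pools ran from 125 to 269.2 in FL1 and from 229.9 to 425 in DUKsi, and FL1 was the lower one in 35 of 36 pairs of pools. The log2 fold change was of the same size there, at -0.67 with a standard error of 0.181, but did not pass the test (limma, adjusted p = 0.0367), and the difference between both Cebpb probe sets was -0.01 (exact permutation, adjusted p = 0.976).

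The 3' to 5' signal ratio of beta-actin, a measure of RNA integrity, was higher in FL1, at 1.32 to 2.45 against 1.18 to 1.32 in DUKsi, and every pool of FL1 exceeded every pool of DUKsi (exact permutation, two-sided, p = 0.00216, the smallest that 6 pools against 6 allow). With this ratio as a covariate the log2 fold change of Cebpb 1427844_a_at was -0.25 (limma, adjusted p = 0.311). At the other Cebpb probe set, 1418901_at, it was -0.77 (limma, adjusted p = 0.00155), and at Runx1 1422864_at and 1422865_at it was -0.92 and -0.72 (limma, adjusted p = 0.00478 and 0.00151). The 3 probe sets that passed thus did so with and without the covariate. Since the ratio did not overlap between the lines, line and RNA integrity cannot be fully told apart by this fit. For Gapdh FL1 had a ratio of 1.53 ± 0.42 and DUKsi one of 1.28 ± 0.146 (exact permutation, p = 0.203).

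The 250 bases before the start of Cebpb are shown on the plus strand of GRCm38.p6, 5' to 3', with the cAMP response element core TGACG on either strand in capitals, since cAMP signalling follows the luteinizing hormone surge in granulosa cells.
Cebpb, chr2:167688665-167688914: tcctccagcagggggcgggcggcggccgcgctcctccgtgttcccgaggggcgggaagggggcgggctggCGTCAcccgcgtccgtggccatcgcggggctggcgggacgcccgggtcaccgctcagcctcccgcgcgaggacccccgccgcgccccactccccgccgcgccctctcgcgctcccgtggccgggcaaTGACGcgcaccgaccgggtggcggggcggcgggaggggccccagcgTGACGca
This core was found 3 times, at -180 to -176 on the minus strand and at -53 to -49 and -7 to -3 on the plus strand, and 17.8% of all windows held at least 1. The window had no RUNX, C/EBP, TATAAA or CCAAT match. GC made up 81.6% of it, at the 99.3rd percentile of all windows. The share of windows with TGACG was not matched for GC content, so it is no like measure for this window.

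Cebpa, which drives differentiation of fat and myeloid cells and acts with Cebpb in the ovulatory follicle, lies at 35119293 to 35121928 of chromosome 7. Its pools ran from 1024 over a median of 1183 to 1554 in FL1 and from 1179 over 1577 to 2066 in DUKsi. FL1 was the lower one in 32 of 36 pairs, with means of 1226 ± 177 and 1645 ± 338. The log2 fold change of -0.41, with an interval of -0.68 to -0.14, did not pass the test (limma, adjusted p = 0.0704). It passed with all 24 arrays and the pool as a random block (limma, adjusted p = 0.00649), as did Cebpb 1427844_a_at (limma, adjusted p = 0.00221). That fit assumes the same correlation between arrays of a pool for all probe sets. For Cebpa the SD between arrays of a pool was 0.089 log2 units, against 0.198 between pools of FL1 and 0.302 between those of DUKsi. At Cebpb 1427844_a_at it was 0.131, against 0.388 and 0.297. Where arrays of a pool agree more closely than assumed, such a fit counts them partly as replicates, so no call rests on it. The difference between Cebpa and Cebpb in fold change was 0.26, with an interval of -0.24 to 0.77 (exact permutation, adjusted p = 0.344), which covers equal changes as well as a clearly smaller one of Cebpa.
The 250 bases before the start of Cebpa are shown for comparison with those of Cebpb, on the plus strand of GRCm38.p6, with TATAAA in capitals.
Cebpa, chr7:35119043-35119292: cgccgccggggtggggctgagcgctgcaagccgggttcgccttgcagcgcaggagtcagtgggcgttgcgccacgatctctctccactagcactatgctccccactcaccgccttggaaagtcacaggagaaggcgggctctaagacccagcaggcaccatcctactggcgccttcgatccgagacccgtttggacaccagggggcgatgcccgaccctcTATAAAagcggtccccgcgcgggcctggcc
TATAAA lay at -30 to -25 and was present in 12.4% of all windows. The other motifs searched, TGACG among them, had no match there.

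Cebpg, the gene of a small C/EBP protein that lacks the usual activation domain and pairs with other zipper proteins, lies on the minus strand of the same chromosome, at 35046422 to 35056566, so that its start is 62.7 kb from that of Cebpa, which lies on the plus strand. At 1425262_at its pools ran from 590.1 to 742.9 in FL1 and from 595.5 to 772.7 in DUKsi, nearly the same range. The log2 fold change was -0.02 with an interval of -0.19 to 0.16 (limma, adjusted p = 0.932). The other Cebpg probe sets had -0.25 at 1451639_at and -0.15 at 1425261_at (limma, adjusted p = 0.384 and 0.682), and their arrays of a pool differed more, by an SD of 0.379 and 0.353 log2 units against 0.159 at 1425262_at. The difference between the neighbours Cebpa and Cebpg was -0.39 (exact permutation, adjusted p = 0.0893).

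Cebpd, induced in inflammation and early in fat cell differentiation, lies at 15887286 to 15889545 of chromosome 16. At 1423233_at its pools ran from 124.5 to 201.8 in FL1 and from 143.8 to 254.3 in DUKsi, and at 1456605_at from 81.6 to 168.6 and from 58.5 to 153. Both probe sets overlapped between the lines and had opposite signs, with log2 fold changes of -0.23 and 0.26 (limma, adjusted p = 0.517 and 0.587). The interval of -0.61 to 0.15 at 1423233_at covers a fall of the size of Cebpa and no change, and without FL1 pool 3 and DUKsi pool 4 the log2 fold change there was -0.08 (limma, adjusted p = 0.826). At 1456605_at the SD between arrays of a pool was 0.613 log2 units, the highest of the 14 probe sets.

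**Figure D3:**
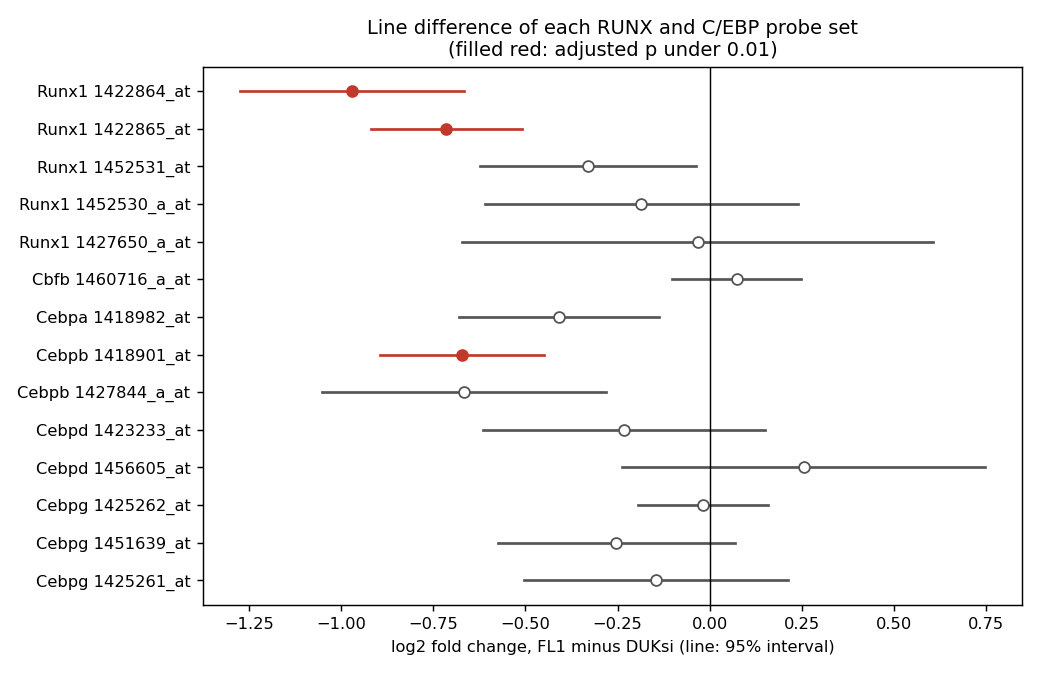
Log2 fold change, FL1 minus DUKsi (horizontal), with its 95% interval from limma for each of the 14 probe sets (vertical), filled where the adjusted p was under 0.01. The filled points are Runx1 1422864_at at -0.97, Runx1 1422865_at at -0.71 and Cebpb 1418901_at at -0.67, and the interval of Cbfb runs from -0.10 to 0.25.

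Whether the genes changed unequally was tested on their ratios within pools. Of the 15 pairs of the 6 genes, 5 passed at an adjusted p under 0.05 (exact permutation over 12 pools, two-sided). Runx1 was lower against Cbfb, as given above, and against Cebpg by a difference of -0.95, with an interval of -1.35 to -0.56 (exact permutation, adjusted p = 0.00812). Cebpb was lower against Cebpg by a difference of -0.65, with an interval of -0.93 to -0.38, and Cbfb was higher against Cebpb by 0.75 (exact permutation, adjusted p = 0.00812 for each). Cbfb was also higher against Cebpa, by 0.48 (exact permutation, adjusted p = 0.013). The ratio of Runx1 to Cebpb differed by -0.30, with an interval of -0.74 to 0.14 (exact permutation, adjusted p = 0.221), so that equal falls of both genes were not set apart from unequal ones. With all probe sets of a gene averaged, the ratio of Runx1 to Cebpg lost its call (difference of -0.31, exact permutation, adjusted p = 0.0771), that of Runx1 to Cbfb differed by -0.52 (adjusted p = 0.0195) and that of Runx1 to Cebpb turned to 0.22 (adjusted p = 0.18). This average gave the dim Runx1 1427650_a_at, at -0.03, and 1452530_a_at, at -0.18, the same weight as the other Runx1 probe sets.

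**Figure D4:**
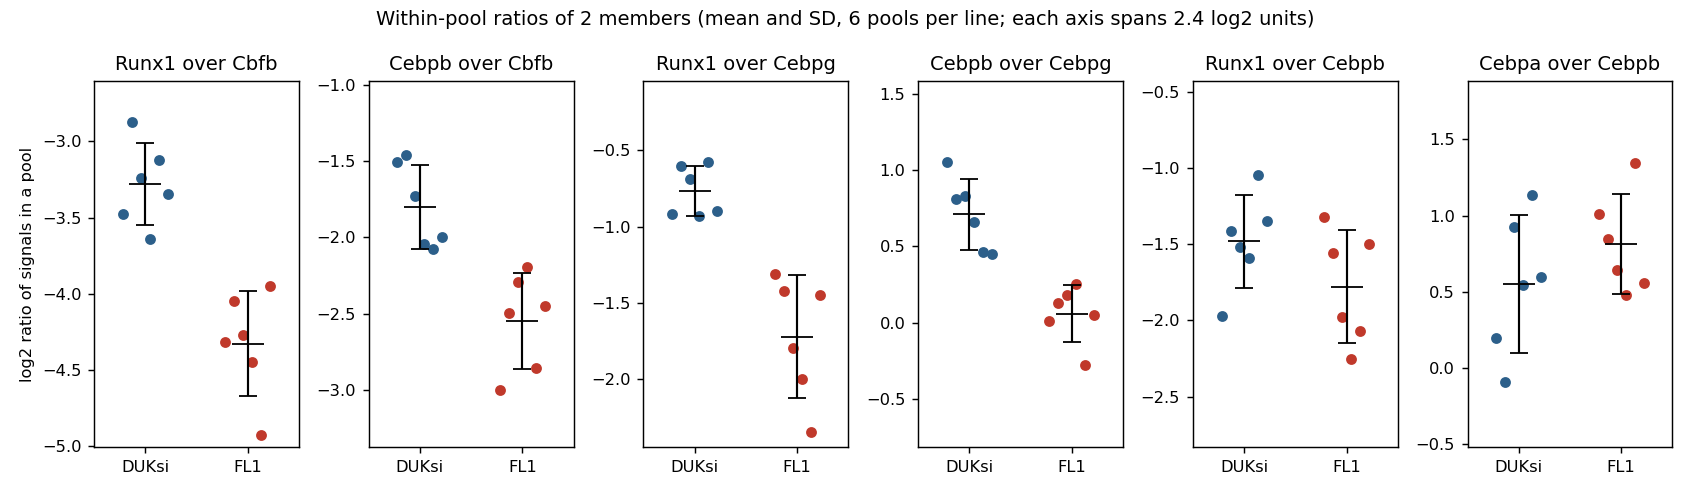
Log2 ratio of the signals of 2 genes within a pool (vertical; each axis spans the same 2.4 log2 units) in DUKsi and FL1 (horizontal), with points for pools and bars for the mean and SD of 6 pools. The lines do not overlap for Runx1 and for Cebpb over Cbfb or Cebpg, and overlap for Runx1 over Cebpb and Cebpa over Cebpb.

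How alike the genes varied from pool to pool is given as a description. After the mean of each line was removed, the Pearson correlations between the 6 genes over the 12 pools ran from -0.53 between Cebpa and Cebpb to 0.31 between Cbfb and Cebpa. Among 12486 other probe sets the patterns most like that of Runx1 were those of Tfpt at 0.93 and Tmem60 at 0.92, and most like that of Cebpb those of Ccdc77 at 0.88 and Iars2 at 0.86. For Cbfb they were Axin2 at 0.88 and Ube2z at 0.87, and for Cebpa Ephb6 at 0.88 and Psen2 at 0.87. For Cebpd they were Lyz2, the lysozyme gene of macrophages, at 0.86 and Med31 at 0.85, and for Cebpg Heatr1 at 0.95 and Cnmd at 0.92. These are the highest of many correlations over few pools, which share array and RNA quality.

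The partners and regulators were described by gene lists, with 1 probe set per gene, the one with the highest signal. Over all 12393 genes, 2.08% rose and 1.65% fell in FL1 at an adjusted p under 0.01. In the list of the RUNX family and its cofactors 2 of 21 genes rose and 0 fell, with a median log2 fold change of -0.03 against -0.05 over all genes. Both that rose, Tle5 and Tle2, belong to the TLE family, whose full-length products are corepressors that bind RUNX proteins. The other 4 TLE genes of the list did not pass, with log2 fold changes of 0.20 for Tle1, 0.05 for Tle3, -0.14 for Tle4 and 0.10 for Tle6. Tle5, the short member, was at 2148 ± 441 in FL1 and 1404 ± 144 in DUKsi, a log2 fold change of 0.60, and Tle2 at 819.2 ± 92 and 591.3 ± 39, one of 0.47 (limma, adjusted p = 0.00476 and 0.00212). By the methods' t-test on linear signals neither passed (adjusted p = 0.049 for Tle5 and 0.0102 for Tle2). The third RUNX gene, Runx3, was dim, with mean signals of 22.6 and 35.4. Among the C/EBP relatives, zipper partners and regulators 1 of 17 genes fell and 0 rose, with a median of -0.08. This was Klf5, a zinc finger factor that acts with C/EBPs in fat cells, with 161.8 ± 22.7 in FL1 against 261.3 ± 35.1 and a log2 fold change of -0.69 (limma, adjusted p = 0.00326). Its other probe set had -0.52 (limma, adjusted p = 0.103). Trib2, whose product leads C/EBPa to degradation, was looked at after its values were seen. Its brighter probe set had a log2 fold change of -0.24 and did not pass, whereas its dimmer one fell by 0.77 log2 units (limma, adjusted p = 0.0345 and 0.000309).

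Ovulatory and luteal genes, with known RUNX and C/EBP targets among them, showed 4 rises and 1 fall among 26 genes, with a median of 0.19. Cyp11a1, the side chain cleavage enzyme that starts steroid synthesis, rose by 0.98 log2 units, Timp1, an inhibitor of matrix proteases, by 0.66, Ptger2, a receptor of prostaglandin E, by 0.53 and Mt1, a metallothionein, by 0.48 (limma, adjusted p = 0.000376, 0.00839, 0.00349 and 0.000258). Ptgds, a prostaglandin D synthase, had 189.7 ± 38.6 in FL1 against 304.8 ± 34.3, a log2 fold change of -0.70 (limma, adjusted p = 0.00561), whereas its dimmer probe set had 0.14 (limma, adjusted p = 0.68). For Mt1 the dimmer probe set had -0.12 (limma, adjusted p = 0.839). By the methods' t-test Timp1 and Ptgds did not pass (adjusted p = 0.0958 and 0.0114). Ptgs2, the inducible prostaglandin synthase and a known C/EBPb target, had a log2 fold change of -0.26 with an interval of -0.90 to 0.39 and did not pass (limma, adjusted p = 0.689). Rgcc, named after its values were seen, disagreed between its probe sets. It had a log2 fold change of -0.78 at 1438511_a_at (limma, adjusted p = 0.0663) and rose by 1.46 at 1418003_at (limma, adjusted p = 7.46e-06).

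The cell types that the ovary holds were followed by marker lists, since Runx1 and the C/EBP genes are made by several of them. These lists were chosen with earlier results of these data known. They hold genes that the study had already reported as differing, among them Cdh2, Ccnd2, Ptgfr and Cyp11a1, so that the counts are a description only. Of the granulosa cell markers 3 of 14 fell and 0 rose, namely Cdh2 by 1.46, Ccnd2 by 0.74 and Inhba by 0.52 log2 units (limma, adjusted p = 3.15e-08, 0.000639 and 0.000646). Ccnd2 was lost by the methods' t-test with Benjamini-Hochberg adjustment (adjusted p = 0.0111). The study itself, which used q-values, discusses Ccnd2 among its differentially expressed genes. The summed signal of the granulosa markers was 48107 to 55108 in FL1 and 55149 to 64014 in DUKsi, without overlap. Of the luteal markers 5 of 11 rose and 0 fell, led by Ptgfr, the receptor of prostaglandin F, at 1.82 and Hsd17b7, an enzyme of steroid and cholesterol synthesis, at 1.78, followed by Cyp11a1 at 0.98 and Idh1 at 0.95 (limma, adjusted p = 0.00373, 4.99e-05, 0.000376 and 0.000465), with a median over the list of 0.95. Their summed signal was 70088 to 80323 in FL1 and 36803 to 55365 in DUKsi. Of the oocyte markers 1 of 11 fell, Zp3, by 0.49 log2 units, which was lost by the methods' t-test (adjusted p = 0.0115), with sums of 7966 to 10668 and 10494 to 12657. Of the theca and interstitial markers 1 of 8 rose, Cyp11a1 again, and 1 fell, Aldh1a1, by 0.52. At an unadjusted p under 0.05 in limma, 5 of 8 theca and interstitial markers were lower and 1 was higher. By the same rule 8 of 14 granulosa markers were lower and 1 higher. Of 11 oocyte markers 5 were lower and 0 higher, and of 11 luteal markers 10 were higher and 0 lower. Over all probe sets 11.5% were lower and 8.25% higher by this rule. The medians of the theca, granulosa and oocyte lists were -0.23, -0.20 and -0.24. The part of these cell types in the lower Runx1 and Cebpb signals was not tested.

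Blood cells and fat also make Runx1 and C/EBP genes. Of 19 macrophage and monocyte markers 0 passed in limma or the methods' t-test. At an unadjusted p under 0.05 in limma 8 were higher and 1 was lower, against 8.25% and 11.5% of all probe sets. Their median was 0.31, with sums of 10435 to 13728 in FL1 and 8627 to 12277 in DUKsi. Lyz2 had a log2 fold change of 0.09 and Csf1r one of 0.35 (limma, adjusted p = 0.751 and 0.0945). Of 13 neutrophil and myeloid granule markers 0 passed by either test and 1 was higher at an unadjusted p under 0.05, with a median of -0.04. Ltf and Lcn2 had the highest means over all pools, which rested on DUKsi pool 4, at 1838 for Ltf and 2455 for Lcn2 against 96.2 to 208.9 and 50.4 to 82.3 in the other DUKsi pools. Of 9 adipocyte markers 0 passed by either test and 0 at an unadjusted p under 0.05, with a median of 0.10 and with Lpl and Fabp4 as the brightest. Of 11 markers of surface epithelium and oviduct 1 rose, Upk3b, by 1.29 (limma, adjusted p = 0.000182), and of 7 bone and cartilage genes, 5 of them dim, 0 passed in the same ways, with a median of -0.24. Over all lists together, 162 genes, 11 rose and 7 fell.

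**Figure D5:**
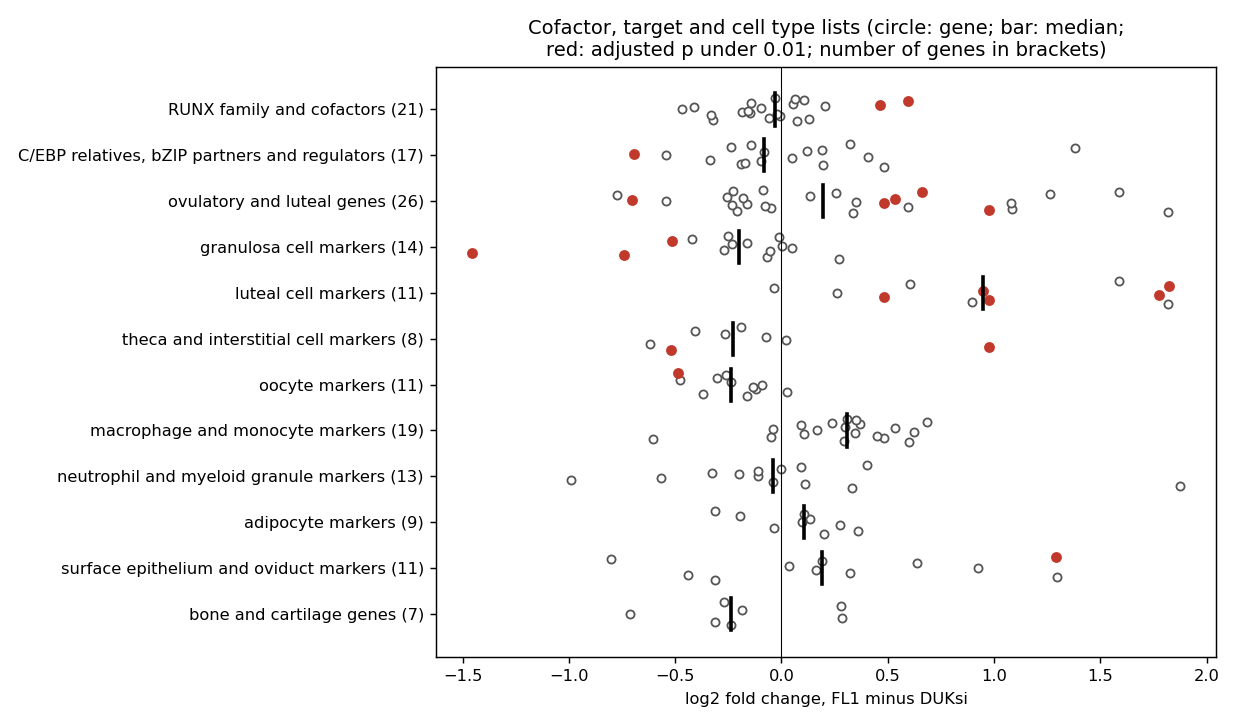
Log2 fold change, FL1 minus DUKsi (horizontal), of each gene of the partner, target and cell type lists (vertical; number of genes in brackets), with bars for the median of a list and red for an adjusted p under 0.01. The luteal list has the highest median at 0.95 with 5 genes that rose, the granulosa list 3 genes that fell, and the macrophage list a median of 0.31 with none past the test.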

How the data were processed

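Ovary RNA of FL1 and DUKsi was measured in 6 pools per line on 24 MOE 430A arrays. The deposited values are MAS5 intensity values that the authors had scaled per array, so that the trimmed mean was 500.1 on each. Medians per array ran from 212.1 to 244.5, no array repeated another, and the number of arrays limits the precision. The mean of both arrays stood for a pool, and its log2 value entered a comparison of 6 with 6 pools in R 4.3.3 with limma 3.58.1 (lmFit, eBayes with trend) and Benjamini-Hochberg adjustment over 22626 probe sets, without 64 control probe sets. Past the test means an adjusted p under 0.01, and called means a ratio of mean signals of at least 1.5 in addition. Differences between genes or probe sets were tested by exact permutation over the 924 splits of the pools, with a threshold of 0.05. Simulated signals with known changes were used to test the procedure.

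Probe sets were named from the platform annotation, in which 20380 had 1 gene symbol, 691 several and 1555 none, and those with several were not used for a gene. Named were every member probe set, in each list up to 4 genes with the largest change past the test or the 2 brightest, and for each member the 2 most similar probe sets. The members and lists were chosen with earlier results of these data known. Positions and promoters came from RefSeq (GRCm38.p6), where 5 of the 6 genes had a promoter. Single-probe data were not used here. The methods' t-test denotes a two-sample test with equal variance. Its p-values were adjusted here by Benjamini-Hochberg, whereas the study used q-values, so that a gene lost by it may have passed in the study. Alternatives covered the arrays used, scaling, a constant before log2, dim probe sets, the test and its variance prior, the replicate block, the actin ratio and left-out pools, and their effect is given at the end. The numbers of the pools do not pair animals of both lines.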

Additional observations from a re-analysis of the deposited data

Results flagged for a closer look

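At the dim Runx1 probe set 1427650_a_at, DUKsi pool 1 stood apart with a signal of 17.45, whereas the other 5 pools of the line ran from 9.75 to 11.2. It was the only one of 28 groups tested whose gap passed Dixon's critical value of 0.625, and chance alone flags about 1 group in 20. No call rests on this probe set.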

How the results depend on the processing

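Runx1 1422864_at and 1422865_at passed the test under all 27 alternatives run for them, with log2 fold changes of -1.03 to -0.82 and -0.76 to -0.60, and Cebpb 1418901_at under 26 of 27, at -0.77 to -0.59, the exception being the methods' t-test on linear signals. The other 11 probe sets stayed beyond the threshold under every alternative run, apart from Cebpa and Cebpb 1427844_a_at with all 24 arrays. No member was higher at an adjusted p under 0.01 under any of them. The number of member probe sets lower in FL1 was 3, with 2 by that same t-test, 5 with all 24 arrays and the pool as a random block, and 4 at an adjusted p under 0.05. Without single pools it stayed at 3.

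Counts over all probe sets, 351 lower and 413 higher, moved more. They were 198 and 270 with the second array of each pool alone, 578 and 700 with all 24 arrays, 229 and 634 with arrays scaled to the same median, which moved the median of all genes by 0.09 log2 units, and 773 and 791 at an adjusted p under 0.05. The methods' t-test on linear signals gave 256 higher and 335 called, limma without the trend 272 higher, and the actin covariate 648 lower. With the pool number as a replicate block 230 were lower, 4 listed genes fell, and no member changed its call. Same-numbered pools correlated at -0.30 to 0.15 in their deviations, so the numbers do not pair the pools.

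Of the listed genes 11 rose and 7 fell. All 24 arrays gave 21 and 15, an adjusted p under 0.05 gave 23 and 14, and leaving out both FL1 pool 3 and DUKsi pool 4 gave 17 and 12. The methods' t-test on linear signals gave 7 and 4, that on log2 signals and limma without the trend 7 rises each, and the actin covariate 11 falls. With 1 pool left out, 6 to 15 rose and 5 to 11 fell, the most falls without FL1 pool 3 and the fewest rises without FL1 pool 4 or 6. The ratio of Runx1 to Cebpd passed without FL1 pool 3 and DUKsi pool 4 (-0.93) and with all probe sets of a gene averaged (-0.46). That of Cebpb to Cebpd passed with all probe sets averaged (-0.68) and not without these pools (-0.65). The cause of these shifts was not tested. Single probes and present calls were not analysed here.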
